A study of Homo sapiens with 16 samples.

Results

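The response of cultured renal cancer cells to induction of short hairpin RNAs against DGAT1 and DGAT2 was described at normal oxygen, across gene families and across the range of expression levels. Members were chosen by array title and comprised 8 of the 16 arrays of the series, 4 from cells given doxycycline in normoxia and 4 from cells given vehicle in normoxia. Values were available for 22411 genes, each represented by its brightest probe set that carried a single gene symbol. The cells were A498, an established line of clear cell renal cell carcinoma (ccRCC), infected with lentivirus to carry a DGAT2 hairpin in Tet-pLKO-puro and a DGAT1 hairpin in Tet-pLKO-neo, both expressed only when doxycycline is present. Every group carried both hairpins and was grown in low serum. Doxycycline or vehicle was given for 5 days, and normoxia or hypoxia (0.5% oxygen, the other 8 arrays) was applied for 2 days. The labels call the arrays biological replicates but do not say whether they came from separate cultures, so p-values measure the spread between these samples, which may be technical. No group received doxycycline without DGAT hairpins, and an effect of doxycycline itself cannot be told apart from that of the hairpins.

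DGAT1 and DGAT2 are unrelated enzymes of the endoplasmic reticulum that each join a fatty acyl-CoA to diacylglycerol, the last step of triglyceride synthesis. The product is packed into lipid droplets, which store fatty acids and buffer the membrane against an excess of them. Clear cell renal cell carcinoma takes its name from cells filled with such droplets and glycogen.

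Both targeted transcripts were lower in every doxycycline array than in every vehicle array. DGAT1 read 5.04, 5.13, 5.20 and 5.09 on the deposited log2 scale in doxycycline normoxia, against 6.86, 6.67, 6.77 and 6.99 in vehicle normoxia. DGAT2 read 5.13, 5.44, 5.09 and 5.18 in doxycycline normoxia, against 7.18, 6.93, 7.08 and 6.95 in vehicle normoxia. The differences of -1.71 ± 0.09 and -1.83 ± 0.10 (SE of the limma fit) left 30.7% of the DGAT1 signal and 28.1% of the DGAT2 signal, with limma adjusted p-values of 3.75e-08 and 3.96e-08. An exact two-sided permutation test of either gene over the 8 arrays gave p = 0.0286, the smallest that 4 against 4 arrays allow.

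Of 9 measured relatives of the targeted enzymes, SOAT1 was the one that passed the test. SOAT1, which esterifies cholesterol and is the closest relative of DGAT1 with SOAT2, read 12.67, 12.53, 12.82 and 12.62 in doxycycline normoxia, against 11.62, 12.09, 12.06 and 12.01 in vehicle normoxia. It was higher by 0.72 ± 0.11 (adjusted p = 0.000898), and vehicle replicate 1 stood lowest of its group. SOAT2, the other cholesterol acyltransferase, differed by -0.10 and was not called. The monoacylglycerol acyltransferases MOGAT1, MOGAT2 and MOGAT3 differed by -0.06, -0.08 and -0.09, and none of them passed the test. The wax ester synthases AWAT1 and AWAT2 (-0.13 and 0.03), DGAT2L6 (-0.05) and DGAT2L7P (-0.24) did not pass it either.

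A gene was called when its adjusted p in the limma fit over all genes was below 0.05, and 2035 genes (9.08%) were called, 993 (4.43%) higher and 1042 (4.65%) lower with doxycycline. Most called changes were small. The fold was under 1.5 for 1586 of them (77.9%), between 1.5 and 2 for 198 higher and 184 lower genes, and larger for 36 higher and 31 lower genes, and the median fold over all called genes was 1.32. The doxycycline and vehicle arrays did not overlap for 1963 of the 2035 called genes, against 4470 (19.9%) of all genes. The number of lower genes depended on single arrays, and it was 677 without vehicle replicate 1, 629 without vehicle replicate 4, 537 without doxycycline replicate 3 and 612 without doxycycline replicate 4.

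The arrays carried the markers of the labelled line. All 7 measured members of a list for renal carcinoma and tubule epithelium were above the median level of all genes (4.89), with array values from 5.71 to 15.3. Of the markers of other cell types, 3 for leukocytes, 4 for endothelium and 4 for fibroblasts were measured, all were below the median level (2.80 to 4.32 over the normoxia arrays), and none was called. Of the renal list the cadherin gene CDH6 was higher with doxycycline by 1.20, and the keratin genes KRT8 and KRT18 were lower, as described below with their family. The median of an array over all its probe sets was 3.91 to 4.11, with vehicle normoxia replicate 1 the highest. The leading axis of the spread within groups held 63.3% of that variance. Along it vehicle hypoxia replicate 4 deviated most from its group mean (45.8), followed by doxycycline hypoxia replicate 4 (-31.5) and vehicle hypoxia replicate 3 (-26.1), and in normoxia doxycycline replicate 3 (22.9) and vehicle replicate 1 (-21.4) lay furthest out. With the group means left in, the scores on this axis were -11.2, -22.8, 18.5 and -1.73 in doxycycline normoxia. In vehicle normoxia they were -38.4, 0.285, -14.4 and -15.6, and the groups overlapped.

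**Figure D1:**
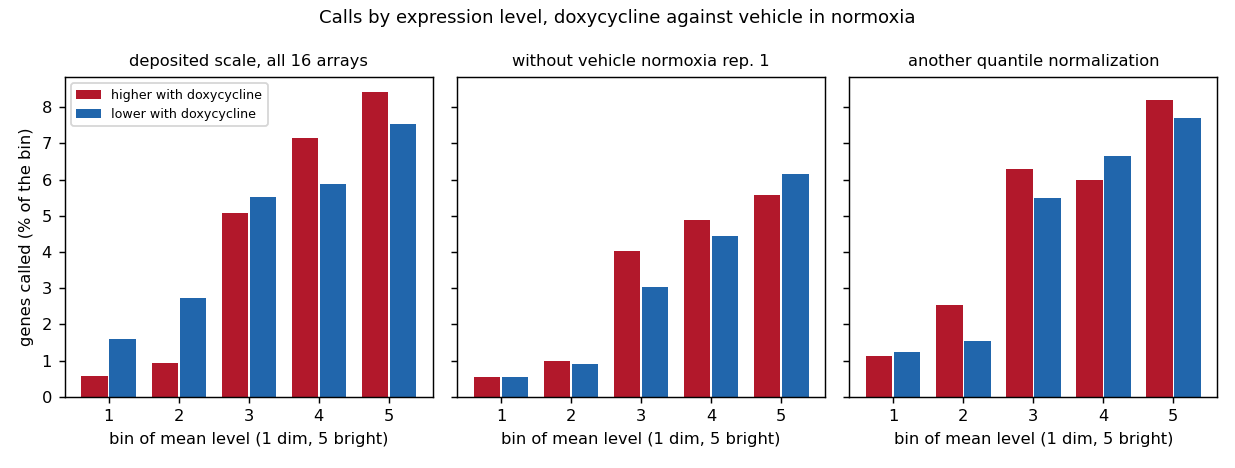
Genes called with doxycycline against vehicle in normoxia by bin of the level (mean log2 value over all arrays). Red bars are the share called higher and blue bars the share called lower (% of the bin, bars from 0), on the deposited scale, without vehicle normoxia replicate 1, and after another quantile normalization. In the 2 dimmest bins 68 genes were higher and 194 lower on the deposited scale, against 165 and 125 after the other normalization.

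The share of genes called was larger at higher levels of expression, with level taken as the mean log2 value of a gene over all 16 arrays. This level is the brightness of a probe set and does not rank transcripts by abundance. The genes were divided by level into 5 bins of equal size, numbered from 1 (dimmest) to 5 (brightest). In bins 1, 2 and 3 the share called was 2.19%, 3.66% and 10.6%, and over all genes above the median level it was 14.1%. The median size of the difference over all genes, called or not, grew along the same order, 0.06 in bin 1 and 0.19 in bin 5, while the median residual SD was 0.10 and 0.17. Called genes had larger median differences in the brightest bins. A larger residual SD requires a larger difference for a call, so the selection alone can raise these medians. The median difference of the higher genes was 0.32, 0.27, 0.33, 0.41 and 0.48 in the 5 bins, and that of the lower genes was -0.23, -0.23, -0.31, -0.43 and -0.52.

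The balance of directions differed along the range of levels. In the 3 brighter bins 227, 321 and 377 genes were higher and 247, 263 and 338 lower. In the 2 dimmest bins together 68 genes were higher and 194 lower. The number of lower genes there was not stable. It was 66 without vehicle replicate 1 (the array with the highest median) and 128 without vehicle replicate 4. It was 122, 123, 77 and 101 without doxycycline replicates 1 to 4, and 307 without vehicle hypoxia replicate 4. Lower genes outnumbered higher ones in both bins in all of these fits except that without vehicle replicate 1. That fit gave 24 and 44 higher against 25 and 41 lower genes in bins 1 and 2. Another quantile normalization turned the balance round, to 165 higher and 125 lower. Centring the arrays on their medians left 83 higher and 146 lower. At the other end of the scale, 53 genes had a level above 16, of which none was higher and 4 were lower (median difference -0.07). By the same limma test 4.43% of all genes were higher and 4.65% lower, and 24.9% had an unadjusted p below 0.05.

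In bin 5, outside the 20 largest changes in each direction, the genes with the smallest adjusted p included enzymes and signalling proteins of several kinds. GNE, the enzyme that starts sialic acid synthesis, read 13.21, 13.09, 13.23 and 13.10 in doxycycline normoxia, against 12.15, 12.30, 12.36 and 12.30 in vehicle normoxia, and was higher by 0.88 ± 0.07 (adjusted p = 3.7e-06). IRS2, the adaptor that couples the insulin receptor to PI3-kinase, read 9.24, 9.25, 9.35 and 9.02 in doxycycline normoxia, against 10.43, 10.26, 10.12 and 10.22 in vehicle normoxia, and was lower (-1.04 ± 0.08, adjusted p = 2.83e-06). The genes named by bin of level were chosen among those whose arrays did not overlap, so the gap between their groups is not a separate result. The cytoskeletal protein gene EPB41 (0.86), the secreted IGFBP7 (0.67), the iron transporter gene SLC11A2 (0.73) and the kinase gene NLK (0.78) were also higher. FBXW2, an F-box protein gene (-0.92), and LSM1, a subunit of the complex that starts mRNA decapping (-0.77), were also lower.

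In bin 4 IGF2BP2, an RNA-binding protein gene, read 8.67, 8.71, 8.65 and 8.69 in doxycycline normoxia, against 7.39, 7.53, 7.51 and 7.49 in vehicle normoxia (1.20 ± 0.07, adjusted p = 1.14e-07). The adhesion protein gene ADAM23 was higher by 0.93 and the collagen gene COL5A1 by 0.77. UBAC1, a subunit of a ubiquitin ligase, was lower (-1.04), as were ANKH, which exports pyrophosphate and ATP (-0.63), and BRD3, a reader of acetylated histones (-0.45). In bin 3 the transcription factor gene SOX6 (0.59), the autotaxin gene ENPP2 (0.85) and the basement membrane gene NID2 (1.11) were higher, and the thrombomodulin gene THBD (-0.59) was lower. ENPP2 lost its call when probe sets of a gene were averaged. In bin 2 AGR2, a disulfide isomerase gene, was higher by 0.38 and the membrane anchor gene ANK3 by 0.31, while FANCE, of the Fanconi anaemia core complex, differed by -0.30. ANK3 read 3.97, 3.95, 4.04 and 4.02 in doxycycline normoxia, against 3.72, 3.67, 3.66 and 3.69 in vehicle normoxia, a fold of 1.24. The chemokine receptor genes XCR1 (-0.25) and CCR4 (-0.25) were lower in the 2 dimmest bins, where a level is close to that of probe sets with little signal.

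**Figure D2:**
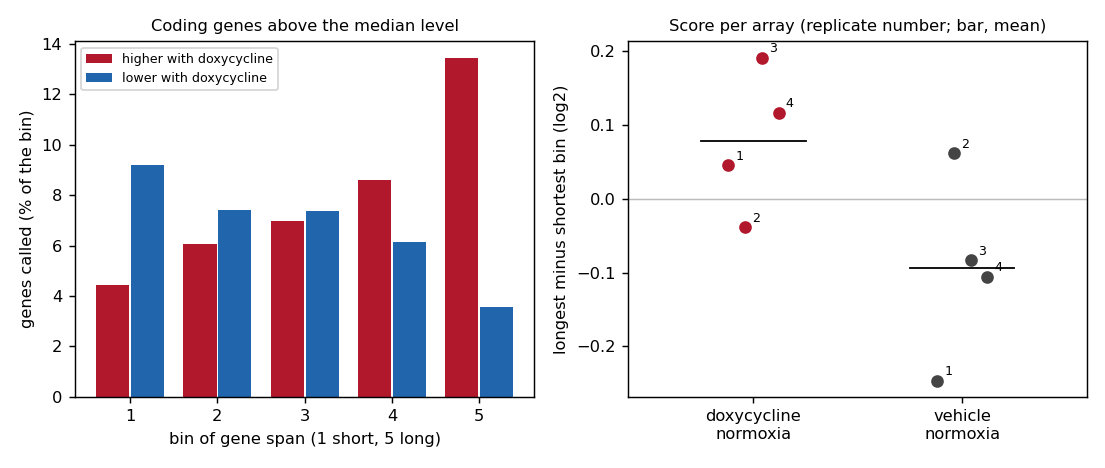
Left, share of coding genes above the median level that were called higher (red) or lower (blue) with doxycycline, by bin of gene span from short to long, with higher calls from 4.42% to 13.4% and lower calls from 9.20% to 3.57%. Right, the long-minus-short score of each normoxia array in log2 units, numbered by replicate with the mean of a group as a bar, where vehicle replicate 2 lies above doxycycline replicates 1 and 2.

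Called genes of the 2 directions had different median lengths on the chromosome. The span of a protein-coding gene, from the first to the last base of its RefSeq annotation, had a median of 26.5 kb over the 17154 coding genes tested (10.3% called, 5.36% higher and 4.9% lower), 53.9 kb over the 919 higher and 20.5 kb over the 841 lower ones. Coding genes were divided by span in the same way, and from the shortest to the longest bin 74, 140, 164, 215 and 326 genes were higher and 198, 190, 199, 160 and 94 were lower. The count was repeated among the coding genes above the median level. (Of all genes above that level, coding or not, 7.53% were higher and 6.59% lower.) There 60, 113, 153, 199 and 286 genes were higher and 125, 138, 162, 142 and 76 lower, and the median difference of all genes in a bin was -0.06, -0.02, 0.02, 0.07 and 0.12. Across the 2 counts the order of the bins was the same for the higher genes.

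The array-level test of this order did not reach the threshold. For each array the median deviation of the longest bin minus that of the shortest bin was taken over genes above the median level. This score was 0.05, -0.04, 0.19 and 0.12 in doxycycline normoxia, against -0.25, 0.06, -0.08 and -0.11 in vehicle normoxia. The groups overlapped, since vehicle replicate 2 lay above doxycycline replicates 1 and 2. The difference was 0.17 with an exact two-sided permutation p of 0.0857. Vehicle replicate 1 had the lowest score and doxycycline replicate 3 the highest. The same arrays lay furthest out in normoxia on the leading axis of the spread within groups, and a link between that axis and this score was not tested. Counts in the longest bin moved by less than 1.5 times when any array was left out. In the shortest bin the 198 lower genes became 107 without vehicle replicate 1, 102 without vehicle replicate 4, 124, 90 and 110 without doxycycline replicates 1, 3 and 4, and 300 without vehicle hypoxia replicate 4, and the 74 higher genes became 46, 45, 47 and 44 without vehicle replicates 1 and 4 and doxycycline replicates 1 and 3. No source used here gives a measure of RNA quality.

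Of 1937 long noncoding RNAs 24 (1.24%) were higher and 54 (2.79%) lower, near the 1.33% and 2.71% of all genes at or below the median level. Of 983 pseudogenes 13 (1.32%) were higher and 45 (4.58%) lower, of 784 transcribed pseudogenes 11 (1.40%) and 37 (4.72%), and of 240 small nucleolar RNAs 4 (1.67%) and 9 (3.75%). The shares were 4.43% and 4.65% over all genes, and 1.33% and 2.71% over those at or below the median level, so the reading depends on the background. CCAT1, a long noncoding RNA known from colon cancer, was higher by 1.55 ± 0.15 (adjusted p = 2.55e-05). LINC00665 read 5.91, 5.93, 5.95 and 5.98 in doxycycline normoxia, against 6.43, 6.28, 6.45 and 6.35 in vehicle normoxia, and was lower (-0.44 ± 0.06, adjusted p = 0.000336). LINC00887 (0.40) was also higher, and NHEG1 (-0.47) was lower. Among dim genes of all kinds the balance of directions changed with the normalization, as given above.

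Of 1034 measured microRNA hairpins 18 (1.74%) were higher and 46 (4.45%) lower, against 4.43% and 4.65% of all genes. Of the hairpins 187 were above the median level, and at or below that level 1.33% of all genes were higher and 2.71% lower. The lower count became 22 without vehicle replicate 1 and 18 without doxycycline replicate 3, and the higher count became 8, 10 and 8 without vehicle replicates 2, 3 and 4, and 11 and 9 without doxycycline replicates 2 and 4. A probe set of a hairpin on such an array can read the primary transcript, the hairpin or the mature microRNA, and the values do not say which. The mature sequences of 7 of the called genes are shown because the microRNA acts through them. They are from RefSeq (GRCh38.p14), 5′ to 3′, with the seed (bases 2 to 8, which pair with the target) in capitals.
hsa-miR-361-3p: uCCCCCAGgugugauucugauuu
hsa-miR-361-5p: uUAUCAGAaucuccagggguac
hsa-miR-4466: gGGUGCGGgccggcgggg
hsa-miR-4468: aGAGCAGAaggaugagau
hsa-miR-92b-5p: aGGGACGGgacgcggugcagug
hsa-miR-92b-3p: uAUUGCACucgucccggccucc
hsa-miR-4322: cUGUGGGCucagcgcgugggg
hsa-miR-4633-5p: aUAUGCCUggcuagcuccuc
hsa-miR-4633-3p: aGGAGCUAgccaggcauaugca
hsa-miR-635: aCUUGGGCacugaaacaaugucc
No seed was shared among these 10 sequences, so the called genes shown do not form a seed family. The first 6 belong to genes that were lower with doxycycline, and the last 4 to genes that were higher.

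Values are given for MIR4466, a bright probe set, and MIR361, a dim one. MIR4466 read 14.24, 14.35, 13.96 and 14.23 in doxycycline normoxia, against 15.53, 15.13, 15.29 and 15.71 in vehicle normoxia (-1.22 ± 0.18, adjusted p = 0.000599). MIR361 read 4.14, 4.13, 4.04 and 4.06 in doxycycline normoxia, against 4.90, 4.73, 4.90 and 5.00 in vehicle normoxia (-0.79 ± 0.10, adjusted p = 0.000131). Neither pair of groups overlapped. MIR4468 (-0.93) and MIR92B (-0.65) were also lower, while MIR635 (0.76), MIR4322 (0.51) and MIR4633 (0.31) were higher. The genes MIR4472-1 and MIR4472-2, numbered copies of 1 microRNA at different places in the genome, moved in opposite directions, 0.35 and -1.05. The G and C content of the hairpin had a median of 48.9% over the 849 with a sequence, 54.3% over the higher and 58.5% over the lower ones. Of 65 called microRNA genes with a position, 36 lay inside the span of another tested gene (strand not considered), and an enclosing gene was called in the same direction for 5, in the opposite direction for 4 (1 microRNA counts in both) and none was called for 28. The microRNA counted in both is MIR635, which lies inside the spans of WIPI1 (0.89, higher), ARSG (-0.21, lower, a call lost without vehicle replicate 4 with an adjusted p of 0.0518) and PRKAR1A (0.09, not called).

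Gene families were compared by their counts of called members and their median difference, beside the shares of all genes (4.43% higher, 4.65% lower, median difference -0.02). Of 151 families counted, 82 had calls in both directions, 33 only higher, 24 only lower and 12 none. Among the 112 families with at least 20 measured members the medians lay between -0.19 and 0.13. The families described were chosen after their values were seen. They came from the 151 and from 8 further families, defined then and not counted among the 151. The counts of the families described are descriptions without a test of the family.

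**Figure D3:**
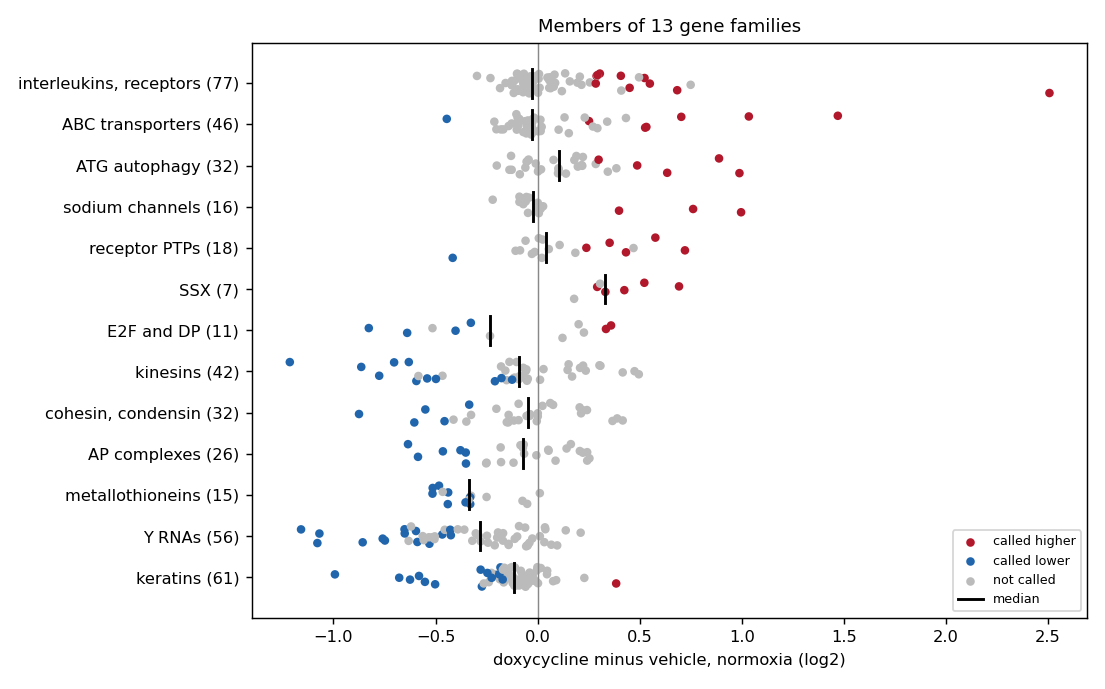
Difference of each member between doxycycline and vehicle in normoxia (log2), 1 point per gene, for 13 families with the number of measured members in parentheses. Red and blue points were called higher and lower by limma, grey points were not called, and the bar is the family median, which stays near 0 in most families while single members reach 2.51 (IL7R) and -1.21 (KIF20A).

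Autophagy breaks down cell contents, lipid droplets among them, inside a membrane that ATG proteins build. Of 32 members of the ATG group 5 were higher and none lower (median 0.10), with 12 at an unadjusted limma p below 0.05. GABARAPL1, a ubiquitin-like protein that is attached to the lipid of the growing autophagosome, read 9.30, 9.16, 9.25 and 9.25 in doxycycline normoxia, against 8.01, 8.13, 8.45 and 8.41 in vehicle normoxia (0.99 ± 0.13, adjusted p = 0.000322). WIPI1, which binds phosphoinositide on that membrane, read 11.58, 11.72, 11.55 and 11.61 in doxycycline normoxia, against 10.75, 10.58, 10.82 and 10.76 in vehicle normoxia (0.89 ± 0.11, adjusted p = 0.00018). MAP1LC3C (0.64), GABARAPL2 (0.49) and GABARAPL3 (0.30), all of the same ubiquitin-like family as GABARAPL1, were the other called members, and GABARAPL1 and GABARAPL3 are close copies whose probes may read both. GABARAPL3 lost its call without vehicle replicate 1 or 4 or doxycycline replicate 1 or 4 (adjusted p between 0.0681 and 0.0887). The count of 5 moved by less than 1.5 times when any array was left out, and 1 lower call appeared without vehicle replicate 3.

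Interleukins and their receptors had 10 higher and no lower members of 77 (median -0.03), of which 20 were above the median level. The receptor genes IL1R1 (0.68), IL13RA1 (0.52) and IL21R (0.29) were called beside IL7R, the receptor of interleukin 7 (2.51). IL1R1 read 8.34, 8.29, 8.36 and 8.41 in doxycycline normoxia, against 7.53, 7.78, 7.74 and 7.62 in vehicle normoxia (adjusted p = 4.85e-05). IL13RA1 read 12.55, 12.44, 12.65 and 12.53 in doxycycline normoxia, against 11.83, 12.07, 12.15 and 12.03 in vehicle normoxia (adjusted p = 0.000434). The groups of both receptors did not overlap, and 1 lower call appeared in the family without doxycycline replicate 3.

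Receptor-type tyrosine phosphatases, which remove phosphate from tyrosines at the membrane, had 5 higher and 1 lower of 18. The adhesion receptors PTPRD (0.72), PTPRS (0.58) and PTPRK (0.43) were higher, as was PTPRE (0.24). PTPRD read 9.20, 9.17, 9.40 and 9.23 in doxycycline normoxia, against 8.27, 8.70, 8.60 and 8.54 in vehicle normoxia (± 0.14, adjusted p = 0.0043). PTPRF, a close relative of PTPRD and PTPRS, moved the other way and read 8.99, 9.17, 9.09 and 8.98 in doxycycline normoxia, against 9.56, 9.40, 9.49 and 9.44 in vehicle normoxia (-0.42 ± 0.07, adjusted p = 0.00285). The remaining higher member, PTPRM (0.35, adjusted p = 0.0393), lost its call without vehicle replicate 1 or 4, vehicle hypoxia replicate 1, any doxycycline normoxia array or doxycycline hypoxia replicate 2 or 3, with adjusted p-values between 0.0518 and 0.118.

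ABC transporters, which pump lipids, drugs and conjugates out of cells, had 6 higher and 1 lower of 46. ABCA1, which exports cholesterol and phospholipid, read 10.86, 10.79, 11.21 and 10.98 in doxycycline normoxia, against 9.20, 9.86, 9.42 and 9.48 in vehicle normoxia (1.47 ± 0.19, adjusted p = 0.000204). ABCC2, an exporter of conjugated compounds at the apical face of the tubule, read 14.11, 14.04, 14.23 and 14.11 in doxycycline normoxia, against 13.21, 13.52, 13.48 and 13.46 in vehicle normoxia (0.70 ± 0.08, adjusted p = 8.72e-05). ABCG2, the urate exporter, was higher by 0.53. ABCA3, known for loading surfactant lipid in the lung, was the lower member (-0.45), and a second lower call appeared without vehicle hypoxia replicate 4.

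Of 363 solute carriers 30 (8.26%) were higher and 18 (4.96%) lower, against 4.43% and 4.65% of all genes. Of the family 187 were above the median level, where 7.53% of all genes were higher and 6.59% lower, so its shares are near that background. No left-out array moved the count of 30 by over 1.5 times. The lower count became 9 and 7 without vehicle replicates 1 and 4, 10, 9 and 9 without doxycycline replicates 1, 3 and 4, and 28 without vehicle hypoxia replicate 4. The endosomal sodium-proton exchanger gene SLC9A9 (0.92) and SLC3A1, of the cystine transporter of the kidney tubule (0.66), were higher. SLC7A1, the arginine transporter, read 9.53, 9.76, 9.73 and 9.39 in doxycycline normoxia, against 10.47, 10.39, 10.55 and 10.50 in vehicle normoxia, and was lower (-0.87 ± 0.11, adjusted p = 0.000236). The nucleoside transporter gene SLC29A1 (-0.46) and the vesicular polyamine transporter gene SLC18B1 (-0.56) were lower as well.

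Of 16 sodium channel subunits, voltage-gated channels of nerve and muscle and epithelial channels together, 3 were higher and none lower. The 3 are voltage-gated channels, which carry the action potential. SCN2A read 6.80, 6.86, 7.21 and 7.05 in doxycycline normoxia, against 5.74, 6.10, 6.10 and 5.99 in vehicle normoxia (1.00 ± 0.15, adjusted p = 0.000846). SCN3A read 5.23, 5.15, 5.73 and 5.51 in doxycycline normoxia, against 4.53, 4.76, 4.71 and 4.57 in vehicle normoxia (0.76 ± 0.17, adjusted p = 0.0116). SCN8A was higher by 0.40, and the epithelial channel subunits SCNN1A, SCNN1B, SCNN1D and SCNN1G (-0.04 to -0.09) were not called.

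The SSX genes, cancer-testis genes on the X chromosome that are silent in most adult tissues, were dim but moved together. All 7 measured members and pseudogenes had positive differences (median 0.33) and 5 were called. SSX5 read 4.15, 4.05, 4.24 and 4.25 in doxycycline normoxia, against 3.42, 3.54, 3.40 and 3.56 in vehicle normoxia (0.69 ± 0.11, adjusted p = 0.00121). SSX3 read 4.12, 4.30, 4.30 and 4.00 in doxycycline normoxia, against 3.67, 3.73, 3.63 and 3.59 in vehicle normoxia (0.52 ± 0.07, adjusted p = 0.000451). SSX9P (0.42), SSX6P (0.33) and SSX1 (0.29) were the other called members, SSX6P losing its call without doxycycline replicate 3 (adjusted p = 0.0517). SSX7 (0.31) and SSX8P (0.18) did not pass the test. The members are near-identical copies whose probe sets may read the same transcript, none was above the median level, and 5 were called after centring the arrays on their medians, 6 after the other quantile normalization, 4 by the methods' t-test, which ended the call of SSX1, and none after a filter on dim genes, which removed them.

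The AP complexes select cargo for clathrin and related coats, and 6 of 26 measured subunits were lower and none higher (median -0.07). AP3D1, the large delta subunit of the complex that serves lysosomes and pigment granules, read 12.66, 12.80, 12.68 and 12.68 in doxycycline normoxia, against 13.39, 13.11, 13.35 and 13.30 in vehicle normoxia (-0.59 ± 0.12, adjusted p = 0.00539). AP1S3 (-0.38) and AP1G2 (-0.46), of the complex at the trans-Golgi, and AP2B1 (-0.35) and AP2S1 (-0.64), of the complex at the plasma membrane, were also called, as was AP4M1 (-0.35), whose groups overlapped. AP2S1 and AP4M1 both lost their calls without vehicle replicate 1, 3 or 4 or doxycycline replicate 1, 3 or 4 (adjusted p between 0.0616 and 0.115), and AP4M1 also without vehicle hypoxia replicate 1 or doxycycline hypoxia replicate 2 or 3 (between 0.0508 and 0.0552) and after the other quantile normalization (0.0567). The count of 6 was at least 4 when any array was left out, and 1 higher call appeared without vehicle hypoxia replicate 3 or 4 or doxycycline hypoxia replicate 1 or 4.

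Cohesin and condensin, the rings that hold and compact chromosomes, had 5 lower and no higher members of 32, among them the condensin subunits NCAPD2 (-0.88), NCAPH (-0.60) and NCAPH2 (-0.46) and the cohesin protector CDCA5 (-0.55). NCAPD2 read 11.89, 12.05, 11.83 and 11.82 in doxycycline normoxia, against 12.86, 12.53, 12.85 and 12.85 in vehicle normoxia (± 0.17, adjusted p = 0.00486), and NCAPH lost its call without doxycycline replicate 3 (adjusted p = 0.0566). Kinesins, motors that walk along microtubules, had 11 lower of 42. KIF20A, a motor of the central spindle, read 9.34, 9.42, 9.23 and 9.20 in doxycycline normoxia, against 10.37, 10.46, 10.63 and 10.58 in vehicle normoxia (-1.21 ± 0.16, adjusted p = 0.000287). KIF22 (-0.86), KIF18B (-0.59) and KIF24 (-0.50) were also lower. The kinesin count became 6 and 7 without vehicle replicates 1 and 4 and 7, 6 and 6 without doxycycline replicates 1, 3 and 4, and 1 higher call appeared without vehicle hypoxia replicate 3 or 4.

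Tubulins were mostly not called, but both measured gamma-tubulins, which nucleate microtubules at the centrosome, were lower. TUBG1 read 12.30, 12.44, 12.28 and 12.34 in doxycycline normoxia, against 13.42, 13.18, 13.50 and 13.46 in vehicle normoxia (-1.05 ± 0.16, adjusted p = 0.00103). TUBG2 read 9.26, 9.38, 9.31 and 9.33 in doxycycline normoxia, against 9.85, 9.71, 9.96 and 10.06 in vehicle normoxia (-0.57 ± 0.12, adjusted p = 0.00618). Of all 27 tubulins 3 were lower, and 6 without vehicle hypoxia replicate 4, when 1 higher call also appeared. TUBG1 and TUBG2 are close copies, and their probes may read both.

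E2F and DP proteins bind DNA in pairs and control genes of S phase. Of 11 measured members E2F1, E2F2, E2F8 and TFDP1 were lower, and E2F5 and TFDP2 were higher. The family median was -0.23, with 5 positive and 6 negative differences, but it was 0.12 over the 9 members above the median level. E2F1 read 6.70, 6.77, 6.54 and 6.70 in doxycycline normoxia, against 7.21, 7.27, 7.41 and 7.39 in vehicle normoxia (-0.64 ± 0.12, adjusted p = 0.00285). E2F8, an atypical repressor, read 7.56, 7.22, 7.63 and 7.48 in doxycycline normoxia, against 8.01, 8.52, 8.30 and 8.37 in vehicle normoxia (-0.83 ± 0.17, adjusted p = 0.00737). TFDP1 (-0.33) and TFDP2 (0.36), alternative partners of E2F proteins, differed in direction. TFDP1 lost its call without doxycycline replicate 4 (adjusted p = 0.0505), and E2F5 (0.34) without doxycycline replicate 1 (adjusted p = 0.0522), which left 1 higher member.

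Of 37 genes of purine and pyrimidine synthesis 7 were lower and none higher (median -0.14), a count that became 4 without vehicle replicate 3, vehicle replicate 4 or doxycycline replicate 4, and 1 higher call appeared without vehicle hypoxia replicate 4. TYMS, which makes thymidylate, read 11.53, 11.56, 11.37 and 11.34 in doxycycline normoxia, against 11.97, 12.03, 12.06 and 12.01 in vehicle normoxia (-0.57 ± 0.11, adjusted p = 0.00443). The ribonucleotide reductase gene RRM2 (-0.53) and PFAS, of the purine pathway (-0.48), were lower too.

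RefSeq promoters (GRCh38.p14, 250 bases before to 50 after the start) were available for 13936 of the coding genes and were searched on both strands for 9 short motifs, with overlapping matches allowed. An E2F-like motif (TTTCCCGC, TTTGGCGC, TTTCGCGC or TTTGCCGC) was present in 9.08% of 672 promoters of lower genes and 3.84% of 756 promoters of higher genes, against 4.44% of all and 5.75% of those above the median level. The CCAAT box (CCAAT) was in 43.0% of lower and 35.3% of higher promoters, against 36.4% of all and 37.3% of those above the median level. The cell cycle homology region (TTTGAA or TTCGAA) was in 16.5% and 11.9%, against 13.5% and 11.3%. The AP-1 motif TGACTCA was in 3.13% of lower and 5.29% of higher promoters, against 3.63% of all and 2.82% of those above the median level, and an NF-kB-like motif (GGG, any 2 bases, then TTTCC) in 1.19% and 3.31%, against 1.94% and 2.31%. An ETS-like motif (CCGGAAG) was in 17.0% of lower and 10.4% of higher promoters, against 14.4% of all and 20.5% of those above the median level. The TATA box (TATAAA) was in 7.59% of lower and 7.01% of higher promoters, against 9.24% of all and 5.24% of those above the median level, so its order against the background depends on the background. The E box (CACGTG) was in 10.1% and 8.73%, against 8.75% and 10.5%, and the core of the metal response element (TGCACNC or TGCGCNC) in 41.7% and 35.6%, against 35.2% and 39.4%. A match describes the letters of the promoter and does not show that a factor binds. The 250 bases before the starts of E2F1 (chr20:33686386-33686635, minus strand) and TYMS (chr18:657403-657652, plus strand) are shown with the E2F-like matches in capitals.
E2F1: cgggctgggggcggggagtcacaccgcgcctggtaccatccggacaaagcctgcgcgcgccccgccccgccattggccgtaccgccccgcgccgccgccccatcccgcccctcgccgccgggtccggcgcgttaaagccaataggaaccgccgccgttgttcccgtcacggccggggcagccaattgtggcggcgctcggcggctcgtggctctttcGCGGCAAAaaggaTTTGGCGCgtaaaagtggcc
TYMS: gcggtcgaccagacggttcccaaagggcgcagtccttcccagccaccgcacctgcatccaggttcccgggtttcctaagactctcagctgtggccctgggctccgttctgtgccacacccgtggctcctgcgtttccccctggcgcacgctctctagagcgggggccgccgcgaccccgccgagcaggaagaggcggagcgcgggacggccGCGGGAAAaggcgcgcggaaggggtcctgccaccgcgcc
The E2F1 promoter held 2 matches close to the start and the TYMS promoter 1. No E2F-like match was found in the same 250 bases of KIF20A, KIF22, KIF18B or KIF24.

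**Figure D4:**
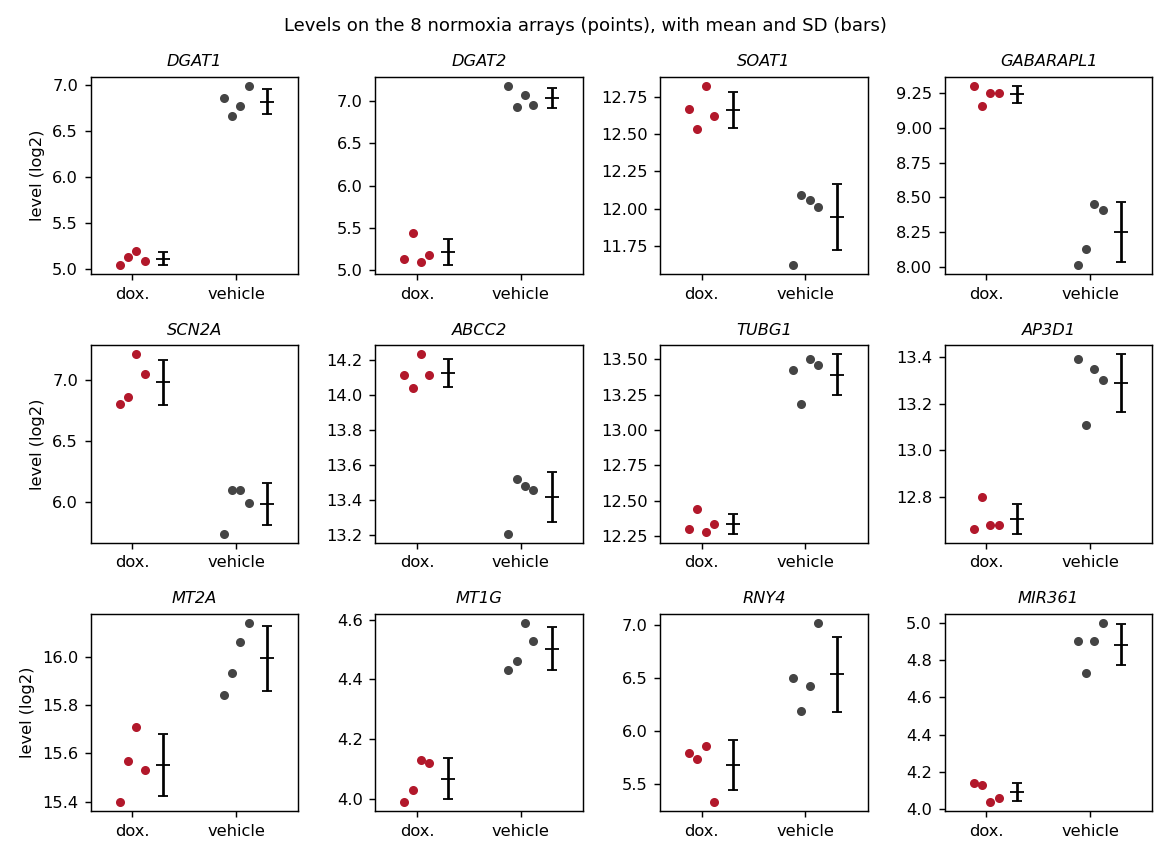
Level of 12 genes on the 8 normoxia arrays (log2, each panel with its own axis that does not start at 0), with doxycycline to the left of vehicle and the mean and SD of a group beside its points. The 4 doxycycline arrays lie entirely above or entirely below the 4 vehicle arrays in every panel.

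Metallothioneins, small proteins that bind zinc and copper and are induced by metals through the metal response element, had small negative differences in normoxia. Of 15 measured genes and pseudogenes, most in a cluster on chromosome 16, 14 had negative differences (median -0.34), 8 were called lower and none higher. MT2A, the main form in most cells, read 15.40, 15.57, 15.71 and 15.53 in doxycycline normoxia, against 15.84, 15.93, 16.06 and 16.14 in vehicle normoxia (-0.44 ± 0.13, adjusted p = 0.0404). MT1G read 3.99, 4.03, 4.13 and 4.12 in doxycycline normoxia, against 4.43, 4.46, 4.59 and 4.53 in vehicle normoxia (-0.44 ± 0.09, adjusted p = 0.0058). In both the groups did not overlap. MT1F (-0.52), MT1E (-0.33), MT4 (-0.35) and the pseudogenes MT1CP (-0.51), MT1JP (-0.48) and MT1DP (-0.33) were the other called members. MT1L (-0.47), MT1H (-0.34), MT1B (-0.33) and MT1IP (-0.25) had like differences without passing the test, and MT1X (-0.05), MT3 (-0.07) and MT1M (0.01) were near 0.

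The metallothionein calls were close to the threshold, and the copies are similar enough that probes may read several of them. Of the 8 calls 4, 5, 2 and 3 were kept without vehicle replicates 1 to 4, 1, 4, 3 and 1 without doxycycline replicates 1 to 4, and 2 with the replicate number as a block. MT1G kept its call in all of these, and each of the other 7 called members lost it in at least 4 of the fits that left out 1 array. MT2A lost it without vehicle replicate 2, 3 or 4, any doxycycline normoxia array, vehicle hypoxia replicate 1 or doxycycline hypoxia replicate 3 (adjusted p between 0.0507 and 0.114), and when the arrays were centred on their medians (0.0511) or normalized again by quantiles (0.0522). In hypoxia the same 15 genes had a median difference of 0.00, and MT2A differed by 0.19, but none of the 15 passed a test of the difference between the oxygen levels. The promoters of MT2A (chr16:56608334-56608583, plus strand) and MT1X (chr16:56682220-56682469, plus strand), a called member and one that was not, are shown with the core of the metal response element in capitals.
MT2A: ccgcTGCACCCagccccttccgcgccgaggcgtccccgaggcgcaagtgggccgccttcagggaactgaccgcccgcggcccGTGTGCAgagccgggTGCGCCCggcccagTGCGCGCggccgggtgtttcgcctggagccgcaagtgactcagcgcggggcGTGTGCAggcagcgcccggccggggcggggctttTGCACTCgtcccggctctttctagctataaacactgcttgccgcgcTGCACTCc
MT1X: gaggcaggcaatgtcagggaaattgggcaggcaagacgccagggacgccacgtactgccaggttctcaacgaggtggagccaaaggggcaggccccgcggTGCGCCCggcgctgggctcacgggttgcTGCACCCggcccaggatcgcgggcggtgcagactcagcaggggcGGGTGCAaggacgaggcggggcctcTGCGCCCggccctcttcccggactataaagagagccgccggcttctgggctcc
MT2A held 7 matches and MT1X 4, on either strand. Among other members, MT1H held 8 and MT1B 3 without a call, and MT4 held 3 and was called lower. MT1H and MT4 had like differences, and a relation between the number of matches and the response was not tested. At least 5 matches were found in 0.144% of all 13936 promoters. The values of MT1X did not separate the groups.

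Y RNAs are short noncoding RNAs that bind the Ro60 protein. Of 56 measured genes and pseudogenes 14 were lower and none higher (median -0.28), and all 14 carried the name of RNY3 or RNY4. RNY4 read 5.79, 5.73, 5.86 and 5.33 in doxycycline normoxia, against 6.50, 6.19, 6.42 and 7.02 in vehicle normoxia (-0.86 ± 0.18, adjusted p = 0.0087). RNY3 read 17.45, 17.71, 17.35 and 17.45 in doxycycline normoxia, against 17.99, 17.98, 17.87 and 17.99 in vehicle normoxia (-0.47 ± 0.13, adjusted p = 0.0395). RNY1 differed by -0.09 and was not called, and RNY4 lost its call by the methods' t-test (adjusted p = 0.064) and when probe sets of a gene were averaged (0.0543). RNY3 lost its call without any 1 of the 4 vehicle arrays, without doxycycline replicate 1, 3 or 4, without doxycycline hypoxia replicate 1, 2 or 3 (adjusted p between 0.0509 and 0.117) and after the other quantile normalization (0.109). The pseudogenes RNY3P3 (-1.16) and RNY4P24 (-1.07) had the largest differences, but they share most of their sequence with the parent RNA, and the 14 calls are not 14 separate measurements. The count became 7 and 8 without vehicle replicates 1 and 4, and 9, 6 and 7 without doxycycline replicates 1, 3 and 4.

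Keratins, the intermediate filaments of epithelia, had 15 lower and 1 higher of 61 members and pseudogenes (median -0.11). KRT18 read 13.41, 13.57, 13.32 and 13.48 in doxycycline normoxia, against 14.28, 13.94, 14.10 and 14.17 in vehicle normoxia (-0.68 ± 0.10, adjusted p = 0.000555). Its partner KRT8 read 14.51, 14.68, 14.34 and 14.49 in doxycycline normoxia, against 15.15, 14.84, 15.01 and 15.04 in vehicle normoxia (-0.50 ± 0.14, adjusted p = 0.0297). KRT80 (-0.55) and the pseudogene KRT18P52 (-0.99), which shares sequence with KRT18, were lower as well, and KRT15, a keratin of basal cells, was the higher member (0.39). KRT18, KRT80, KRT18P52 and KRT15 kept their calls when any array was left out, but KRT8 lost its call without vehicle replicate 1, 3 or 4 or doxycycline replicate 1, 3 or 4 (adjusted p between 0.0583 and 0.0953). The count of 15 became 6, 7, 9 and 9 without vehicle replicates 1 to 4, 7 and 4 without doxycycline replicates 1 and 3, and 8 among members above the median level.

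Some families of similar size had no called member. They included the taste receptors (26 genes, 5 at an unadjusted limma p below 0.05), the defensins (34 genes, 7), the chloride channels and anoctamins (25 genes, 5), the calcium channel subunits (24 genes, 2) and the fibroblast growth factors (21 genes, 1). Most of these genes are dim in the line, where 4.04% of genes at or below the median level were called (1.33% higher and 2.71% lower). The CCT chaperonin and prefoldin (14 genes, 2) had no call either. Calls appeared for 2 taste receptors without vehicle hypoxia replicate 4, for 1 without doxycycline replicate 3 and for 1 fibroblast growth factor without vehicle replicate 3.

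**Figure D5:**
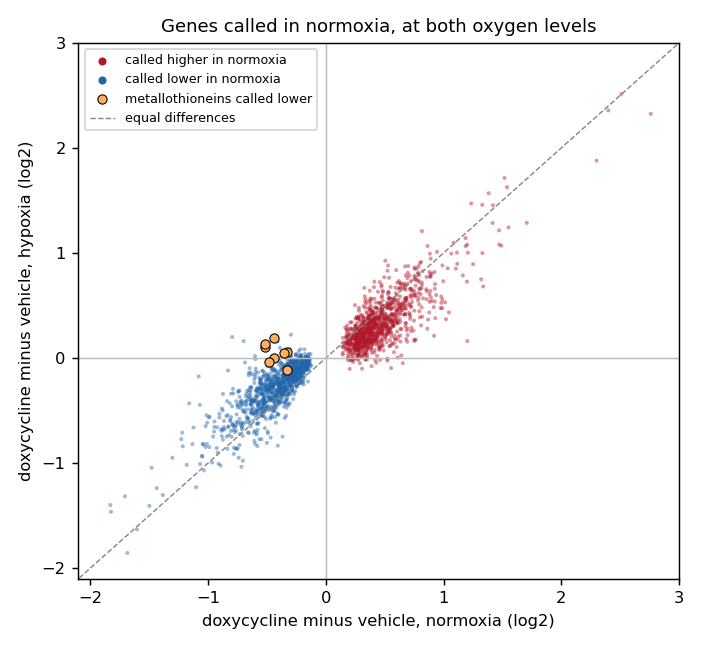
Difference between doxycycline and vehicle in normoxia (x axis, log2) and in hypoxia (y axis, log2) for the genes called in normoxia, red where higher and blue where lower, with the dashed line at equal differences. Most points lie at the lower left or upper right, and the 8 metallothioneins called lower (orange) lie near 0 in hypoxia.

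The same treatment was measured in hypoxia on separate arrays, which allows the genes called in normoxia to be followed there. Of the 993 higher genes 970 (97.7%) had a positive difference in hypoxia, against 48.5% of all genes, and of the 1042 lower genes 1001 (96.1%) had a negative one, against 51.5%. The median differences were 0.41 and -0.38 in normoxia, where the genes were chosen on those values, against 0.29 and -0.24 in hypoxia. In hypoxia itself 2.67% of all genes were called higher and 1.99% lower. The difference between the 2 oxygen levels was tested for each gene as the interaction in limma, and 0 genes (0%) were called (smallest adjusted p 0.643, 4.58% of genes at an unadjusted p below 0.05). SOAT1 differed by 0.37 in hypoxia, where it was not called, and TUBG1 by -0.94, where it was called lower. GABARAPL1 differed by 0.56, MIR4466 by -0.71 and MIR361 by -0.29 in hypoxia. Among the bright coding genes the median differences of the 5 bins of span lay between -0.06 and 0.12 in normoxia, against -0.06 and 0.02 in hypoxia.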

How the data were processed

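Gene expression of A498 cells was measured on 16 Affymetrix-type arrays, 4 in each of 4 groups. The authors deposited log2 values made by robust multi-array averaging (RMA, with the Transcriptome Analysis Console named in the submitters' processing notes). No source used here gives their versions or the genome build. Values ran from 1.71 to 19.85, and 590 probe sets exceeded 16 on every array, beyond the log2 of a 16-bit intensity, so a further scaling step is possible and the log base was taken as 2 from the range. No scanner intensities were used here, and precision is limited by how many arrays there are.

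Of 70523 probe sets, 23781 carried 1 gene symbol, 1543 several and 45199 none in the platform annotation. Symbols were updated through RefSeq identifiers (21497 by gene identifier, 2280 by symbol or synonym, 4 kept as given), which changed 306 symbols. The brightest probe set was kept for the 528 genes with several, leaving 22411 genes. Columns of other samples numbered 0, and 0 pairs of arrays were identical.

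Groups were taken from the array titles. The fit used limma 3.58.1 in R 4.3.3 on all 16 arrays with a mean per group, an intensity trend and Benjamini-Hochberg adjustment over all 22411 genes (threshold 0.05). The hypoxia arrays entered this fit for the estimate of spread. The procedure was tested on simulated data with noise drawn separately for each gene and array. That noise lacks the shared axis of spread seen in the real arrays, so the test does not show how calls behave under it. Exact permutation tests over 8 arrays used all 70 arrangements.

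Named genes were DGAT1 and DGAT2, in each family described up to 4 members with the smallest p per direction, any member of a family of at most 20, and up to 6 genes per direction and bin of level with the smallest adjusted p, outside the 20 largest changes, whose arrays did not overlap. Members and lists were chosen with earlier results of these data known. RNY1, RNY3, ARSG, PRKAR1A and the other members outside this rule that are given values were chosen after their values were seen. Gene span, class, microRNA and promoter sequences came from RefSeq (GRCh38.p14). Alternatives were other normalizations, filters, probe set rules, array weights, a 1.5-fold minimum, the methods' t-test, a replicate block and leaving out each array.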

Additional observations from a re-analysis of the deposited data

Results flagged for a closer look

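Over the genes named above and 3 scores per array, 282 groups of 4 arrays were checked for an array that stood apart from the other 3 by Dixon's criterion, and 10 were marked. Chance marks about 1 in 20 groups, so this number is not above what chance gives. In doxycycline normoxia the array apart was replicate 2 for AP3D1 (12.8, the highest) and MT1X (9.49, the highest), replicate 1 for MOGAT1 (4.12, the highest), and replicate 3 for PTPRM (9.79, the highest) and SCNN1G (3.18, the lowest). In vehicle normoxia it was replicate 1 for SOAT1 (11.62, the lowest) and PTPRM (9.01, the lowest), replicate 2 for KIF22 (8.69, the lowest) and NCAPD2 (12.53, the lowest), and replicate 3 for RNY3 (17.87, the lowest). Of these genes PTPRM and RNY3 lost their calls when the array that stood apart was left out.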

How the results depend on the processing

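None of the 115 called genes named reversed its direction under any alternative, and of 23 named genes that were not called MT1M, MT1X and PRKAR1A, with differences near 0, changed sign in some. Several alternatives, such as the replicate block, the t-test and the omission of a hypoxia array, left the differences themselves unchanged. Most of the called genes named were also chosen for a small p, so the lack of reversals was largely set by these choices. The balance of calls in the 2 dimmest bins turned round after another quantile normalization (165 higher and 125 lower, against 68 and 194). When 1 array was left out, the genes called higher numbered 683 to 1338 (main count 993), the genes called lower 537 to 1547 (1042) and the calls in the brightest bin of level 434 to 1028 (715). Doxycycline normoxia replicate 3 gave the lowest of these counts when left out, and omission of vehicle normoxia replicate 4 left 466 calls in the brightest bin. With array weights estimated from the data 2095 genes were higher and 2682 lower, with 1605 in the brightest bin. With a minimum change of 1.5-fold 234 were higher and 215 lower, with 247 in the brightest bin, and 72 gene families held a call, against 139 of 151. With the replicate number as a block 741 genes were higher and 712 lower. Deviations of same-numbered arrays of the 2 normoxia groups had correlations of 0.33, -0.65, 0.19 and -0.06 for replicates 1 to 4. So few values cannot show whether same-numbered arrays share an origin. Other normalizations, filters and tests left both totals within 1.5 times, with 1099 and 900 after centring on medians, 1083 and 1014 after another quantile normalization, and 911 and 960 by the methods' t-test. Without vehicle normoxia replicate 1 and vehicle hypoxia replicate 4, an alternative chosen after seeing the data, 1006 were higher and 1136 lower. Of the 115 called genes named, 97 kept their call without each single array. Most of them were chosen for a small p, so this share does not describe all called genes. No gene was called for a difference between oxygen levels in any setting. The cause of these movements was not tested.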

Other observations

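Neighbouring genes were called together in places. Along the chromosomes, among tested genes in order of position, 17 runs of at least 3 neighbours were called in the same direction, 9 higher and 8 lower with doxycycline. With 9.08% of all genes called, some runs arise without any link between neighbours. Whether 17 is more than that was not tested. They included OLR1, TMEM52B and GABARAPL1 on chromosome 12 (higher), ITPR1, EGOT and BHLHE40-AS1 on chromosome 3 (higher), ABCG2, PPM1K and HERC6 on chromosome 4 (higher), KRT78, KRT8, KRT18 and EIF4B on chromosome 12 (lower), POLE, PXMP2 and PGAM5 on chromosome 12 (lower) and ZNF805, ZNF460 and ZNF543 on chromosome 19 (lower). The strand was not considered, and runs of copies such as the metallothionein pseudogenes and the SSX genes may read shared sequence.

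Probe sets that were not assigned to a single gene were also fitted. In a fit of all 70523 probe sets 1170 were higher and 1472 lower, and among the 46742 with no symbol or several 462 were higher and 854 lower.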
